A study of Mus musculus with 19 samples.

Results

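The glucose-response targets of ChREBP described here were Txnip, Arrdc4, Pklr and Tieg1, the last of which is the array's older name for Klf10. They were found by name, as every probe, control spots left out, whose gene name on the array was one of these 4. That gave 5 probes of 4 genes, of 41174 probes with 29742 gene names in all, since Txnip has 2 probes. All 5 were among the 29330 probes tested. Pancreatic islets of C57BL/6 mice (B6, written C57BL6/J in the study's design) and of C57BLKS/J mice (BLKS), all males aged 12 weeks, were profiled on Agilent whole mouse genome 2-colour arrays. The islets of each mouse were kept apart, held for 48 h in medium with 11 mM glucose and then for 24 h in either 5 mM (low) or 20 mM (high) glucose. No other treatment and no engineered allele was named for any group. There were 5 B6 and 5 BLKS mice in low glucose, and 5 B6 and 4 BLKS mice in high glucose. BLKS is an inbred strain close to B6 that carries segments of the DBA genome. A whole islet holds several cell types, so in such bulk RNA fewer cells of a type and less RNA per cell cannot be told apart.

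ChREBP, encoded by Mlxipl, is a transcription factor that pairs with Mlx and is switched on by sugar phosphates made when a cell takes up glucose. The pair binds the carbohydrate response element, which holds a pair of E box-like hexamers set a fixed distance apart. In beta cells Txnip is one of the best known targets of this pathway. It encodes an alpha-arrestin that binds thioredoxin and restrains glucose uptake, and Arrdc4 encodes the closest relative of that protein. Pklr encodes the liver and red cell pyruvate kinase, the last enzyme of glycolysis and the gene in which the carbohydrate response element was first defined. Klf10 encodes a Krüppel-like repressor that is induced by TGF-beta as well as by glucose.

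The promoters of 3 of the 4 genes were found in the RefSeq table (GRCm38.p6). They are shown because the carbohydrate response element is the feature that ties these genes to ChREBP. Each stretch is the 250 bases before an annotated start, along the strand of the gene, and capitals mark a match, with at most 1 mismatch, to CACGNG and CNCGTG set 5 bases apart or, in Arrdc4, a match to CACGTG. Both forms read alike on the 2 strands, and the shorter can lie within the longer. The first stretch is chr3:96557707-96557956 on the plus strand, the second chr3:89136373-89136622 on the plus strand (the downstream of 2 annotated Pklr starts) and the third chr7:68749239-68749488 on the minus strand.
Txnip: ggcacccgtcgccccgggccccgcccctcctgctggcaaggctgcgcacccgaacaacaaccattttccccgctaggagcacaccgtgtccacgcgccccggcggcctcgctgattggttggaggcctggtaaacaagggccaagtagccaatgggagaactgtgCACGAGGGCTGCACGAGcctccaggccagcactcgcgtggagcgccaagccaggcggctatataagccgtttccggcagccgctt
Pklr: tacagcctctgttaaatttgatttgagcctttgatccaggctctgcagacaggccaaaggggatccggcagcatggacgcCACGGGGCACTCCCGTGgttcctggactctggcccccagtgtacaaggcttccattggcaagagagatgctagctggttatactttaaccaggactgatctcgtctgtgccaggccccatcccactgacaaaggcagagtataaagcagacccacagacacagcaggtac
Arrdc4: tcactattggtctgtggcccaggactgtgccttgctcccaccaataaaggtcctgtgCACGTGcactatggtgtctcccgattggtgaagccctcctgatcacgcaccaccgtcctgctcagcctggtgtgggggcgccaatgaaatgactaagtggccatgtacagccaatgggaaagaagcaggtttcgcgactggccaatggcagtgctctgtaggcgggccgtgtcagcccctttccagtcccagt

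The Pklr stretch at the downstream start held the full form with no mismatch, which began 170 bases before that start. The stretch at the upstream Pklr start, chr3:89135892-89136141, held neither that form at either tolerance nor CACGTG. The same full form stood in 13 of the 32851 promoter windows of the table (0.0396%). The Txnip stretch held it with 1 mismatch, beginning 85 bases before the start, and 235 windows (0.715%) held it at that tolerance. In Arrdc4 neither tolerance gave a match, and the single hexamer CACGTG, present in 6.02% of windows, began 193 bases before the start. Klf10 is named only. A match of letters is a description of the reference sequence, and these data hold no measurement of binding. Txnip lies at chr3:96557957-96561857, Pklr at chr3:89136122-89146815, Arrdc4 at chr7:68736994-68749238 and Klf10 at chr15:38291464-38300711. The probes themselves could not be placed in an exon here, because their sequences were not among the files used.

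Before the results, a pair of libraries needs naming. On 106 probes that separated the strains in high glucose, placed so that B6 in high glucose lies at 0 and BLKS at 1, a B6 library (labelled B6 low glucose 4) lay at 0.972 and a BLKS library (labelled BLKS low glucose 5) at 0.0213. The other B6 low-glucose libraries lay between -0.047 and 0.0628 and the other BLKS ones between 0.927 and 1. All libraries were analysed under their labels, and the results of the members, of the ChREBP genes and of the gene lists are also given without these 2. Correlations between mice over the tested probes ran from 0.981 to 0.998. Every member was well above background in all 19 mice, and no member spot was saturated. The median signal of the negative control spots was between 50.8 and 60.9 units. Pklr, at 75.8 to 99.8 units, lay close above it. In low glucose the second Txnip probe (79.0 to 103 units) and Arrdc4 (93.2 to 113 units) were not far above it either. The size of their log2 rises therefore depends on how the background is treated, and their rises with the negative control signal subtracted are also given. All 10 beta cell markers were measured, of which Ins1, Ins2 and Iapp were saturated in both dyes of every array, so that those 3 have only a bound.

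**Figure D1:**
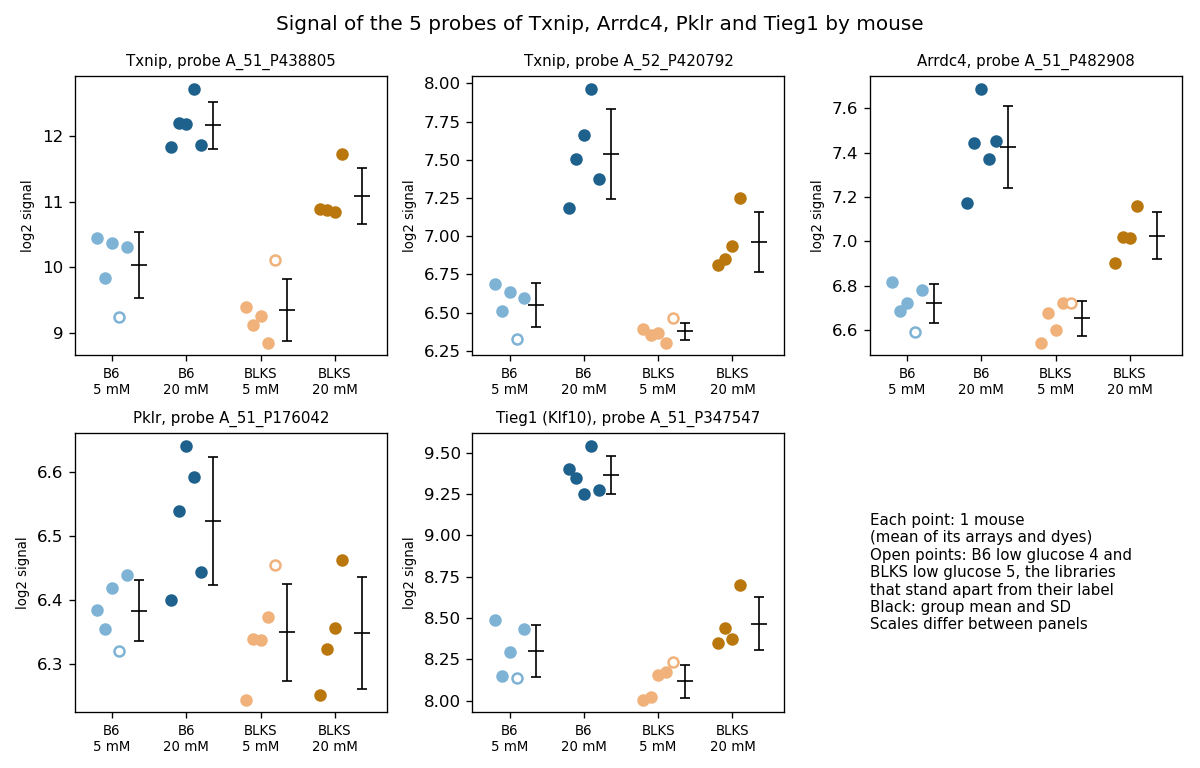
Log2 signal of each of the 5 member probes (y axis, scaled separately in each panel) in every mouse, by strain and glucose concentration (x axis), with the group mean and SD in black and as open points the B6 and the BLKS low-glucose library that stand apart from their label. Tieg1 in B6 islets in 20 mM glucose stood above 9.25 in all 5 mice, while the highest BLKS mouse reached 8.70.

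The probes of the ChREBP gene itself read lower in high glucose. That gene has an upstream and a downstream annotated start, and which of its transcripts the probes read could not be told here. Mlxipl, named Wbscr14 on the array, fell in both strains on both of its probes. On the brighter probe the log2 signal was 11.74 ± 0.423 (SD, n = 5) in B6 in low glucose and 11.07 ± 0.168 (n = 5) in high glucose, a difference of -0.67 (SE 0.206, limma adjusted p = 0.0473). In BLKS it was 11.26 ± 0.509 (n = 5) and 10.42 ± 0.134 (n = 4), a difference of -0.84 (SE 0.218, adjusted p = 0.0164). On the second probe the differences were -0.71 (SE 0.179, adjusted p = 0.0164) in B6 and -0.92 (SE 0.19, adjusted p = 0.0035) in BLKS. The responses of the strains were not shown to differ on either probe (differences of -0.17 and -0.21, both adjusted p = 1). With 1 mouse left out the brighter probe was called in 5 of 19 fits in B6 (adjusted p from 0.0178 to 0.137) and the second in 17. Without both libraries that stand apart, Mlxipl fell by 0.79 in B6 and by 0.66 in BLKS on the brighter probe. It was then also called lower in BLKS in both concentrations. In low glucose the difference was -0.78 (adjusted p = 0.00394), where the fit of all libraries gave -0.48 (adjusted p = 0.252), and in high glucose it was -0.65 (adjusted p = 0.0103), where the fit of all libraries gave -0.65 (adjusted p = 0.0626).

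The dimerisation partner Mlx, named Tcfl4 on the array, moved the other way. Over both strains it rose by 0.23 on the log2 scale (SE 0.0474, adjusted p = 0.00172), and BLKS lay above B6 by 0.30 in high glucose (SE 0.069, adjusted p = 0.00985) and by 0.20 in low glucose (SE 0.0651, adjusted p = 0.161). Without both libraries that stand apart the rise was 0.22 (adjusted p = 0.00014), and BLKS lay above B6 by 0.30 in high glucose (adjusted p = 0.000198) and by 0.305 in low glucose (adjusted p = 0.00028). Mlxip, which encodes the related glucose sensor MondoA, differed by 0.01 over both strains (SE 0.0317, adjusted p = 0.877). Of the 4 probes of these 3 genes, 2 fell over both strains, 1 rose and 1 did not pass the test.

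Txnip had the widest response of the members. In B6 islets its brighter probe (A_51_P438805) read 1394, 909, 1318, 607 and 1269 units in mice 1 to 5 in low glucose and 3682, 4747, 4694, 6797 and 3734 units in mice 1 to 5 in high glucose. In BLKS islets it read 672, 556, 611, 460 and 1108 units in low glucose and 1890, 1879, 1847 and 3405 units in high glucose. No mouse in low glucose reached any mouse of its strain in high glucose, and mouse 4 of each strain was the highest in high glucose, those mice sharing their arrays. The second probe (A_52_P420792) was dimmer and gave the same order of groups. It read 103, 91.2, 99.4, 80.2 and 96.6 units in B6 in low glucose against 146, 182, 203, 249.9 and 166 units in high glucose. In BLKS it read 84.0, 82.0, 82.6, 79.0 and 88.2 units against 112, 115, 123 and 152 units.

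The rise of Txnip passed the test in both strains on both probes. In B6 it was 2.13 on the log2 scale, a 4.39-fold difference (95% interval 3.02 to 6.37, limma adjusted p = 3.71e-05), on the brighter probe, and 0.99 (SE 0.112, adjusted p = 2.57e-05) on the other. In BLKS it was 1.74, a 3.34-fold difference (95% interval 2.25 to 4.96, adjusted p = 0.000355), and 0.59 (SE 0.119, adjusted p = 0.00309). The probes disagreed on the size of the rise, and the gap narrowed when the negative control signal was subtracted, which gave 2.20 and 1.83 in B6 and 1.84 and 1.33 in BLKS.

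Arrdc4, the second alpha-arrestin, rose in both strains as well. Its probe read 113, 103, 105, 96.4 and 110.0 units in B6 in low glucose and 144, 174, 206, 165 and 175 units in high glucose. In BLKS it read 93.2, 102, 96.9, 105 and 106 units in low glucose and 119.6, 129.6, 129 and 143 units in high glucose. The groups of each strain did not overlap, and the highest BLKS mouse in high glucose lay just under the lowest B6 mouse. The rise was 0.71 on the log2 scale in B6 (SE 0.073, adjusted p = 9.69e-06) and 0.37 in BLKS (SE 0.0775, adjusted p = 0.00363). With the negative control signal subtracted it was 1.24 and 0.74.

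The signal of Pklr moved little on this array. Its probe read 83.5, 81.8, 85.6, 79.9 and 86.8 units in B6 in low glucose and 84.5, 93.0, 99.8, 96.5 and 87.0 units in high glucose. In BLKS it read 75.8, 80.9, 80.8, 82.9 and 87.7 units and 76.1, 80.1, 81.9 and 88.1 units. The groups overlapped in both strains. The difference was 0.14 in B6 (SE 0.05, 95% interval 0.04 to 0.24, adjusted p = 0.0915, exact permutation p = 0.0317) and -0.002 in BLKS (SE 0.053, 95% interval -0.11 to 0.11, adjusted p = 0.991, exact permutation p = 0.968). With the negative control signal subtracted the B6 difference was 0.37, the highest of 14 alternatives that left out no single mouse. The lowest of them was 0.09, and 2 of the 14 called the B6 difference. It was also called in 1 of the 19 fits that left out 1 mouse.

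Tieg1 (Klf10) rose in both strains and set them apart in high glucose. In B6 islets it read 359, 284, 314, 282 and 346 units in low glucose and 675, 651, 609, 745 and 620.1 units in high glucose. In BLKS islets it read 257, 259.6, 285, 288 and 300.6 units in low glucose and 326, 348, 332 and 416 units in high glucose. In low glucose the strains overlapped, and in high glucose every B6 mouse lay well above every BLKS mouse. The rise was 1.06 on the log2 scale in B6, a 2.09-fold difference (95% interval 1.86 to 2.35, adjusted p = 6.56e-07), and 0.35 in BLKS, a 1.27-fold difference (95% interval 1.13 to 1.44, adjusted p = 0.0104).

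The BLKS rise of Tieg1 did not pass the test without BLKS high glucose 4 (0.27, adjusted p = 0.0503). It also did not pass without scaling between arrays (0.28, adjusted p = 0.0817) or in the authors' log2 table (0.35, adjusted p = 0.0872). Of the 5 member probes 4 were called higher in high glucose in B6 and 4 in BLKS, where 5.42% and 6.5% of all tested probes were called higher. Those 4 probes, all but that of Pklr in either strain, had no overlap between low and high glucose in either strain, where 4.24% of probes in B6 and 7.11% in BLKS did not overlap and were higher. Each of these comparisons gave an exact permutation p of 0.00794, the smallest that these group sizes allow.

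The size of the rise was then compared between the strains gene by gene. All 5 probes had a lower response in BLKS than in B6, Pklr among them, which was called in neither strain, and 1 of them, Tieg1, passed the test for the difference, where 0.0409% of all tested probes were called. The Tieg1 response was 0.71 lower in BLKS on the log2 scale (difference -0.71, SE 0.116, 95% interval -0.96 to -0.47, limma adjusted p = 0.0376), and its BLKS rise came to 32.9% of the B6 rise. For Arrdc4 the difference was -0.33 (SE 0.106, 95% interval -0.56 to -0.11, adjusted p = 0.786), a BLKS rise of 52.7% of that in B6.

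For Txnip the difference was -0.39 (SE 0.374, 95% interval -1.18 to 0.39, adjusted p = 1) on the brighter probe and -0.40 (SE 0.164, 95% interval -0.75 to -0.06, adjusted p = 1) on the other. The BLKS rise of Txnip was 81.6% and 59.2% of the B6 rise on these probes. For Pklr the difference was -0.14 (SE 0.0728, 95% interval -0.29 to 0.01, adjusted p = 1). The intervals of the brighter Txnip probe and of Pklr held 0 but reached -1.18 and -0.29, so that a like response of the strains was not shown. The median difference over all tested probes was 0.0025.

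**Figure D2:**
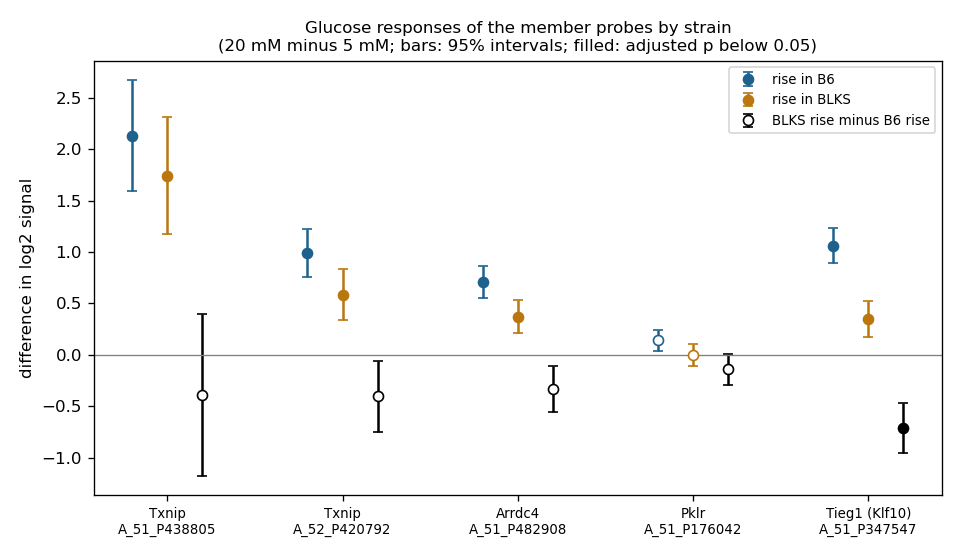
Glucose response (20 mM minus 5 mM, log2 signal) of each member probe in B6 and in BLKS and the BLKS response minus the B6 response, with 95% intervals and filled points where the adjusted p was below 0.05. The black point of Tieg1, at -0.71, was the one difference between the strains that was called.

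The 2 low-glucose libraries that stand apart from their label bear on these differences, and they bear on Txnip most. Without both of them the brighter Txnip probe rose by 1.93 in B6 and by 1.93 in BLKS, and the difference between the responses went from -0.39 to -0.00096 (SE 0.289, adjusted p = 1). The second Txnip probe then differed by -0.33, Arrdc4 by -0.28 and Pklr by -0.10, none of them called. Tieg1 kept most of its difference, at -0.64 (SE 0.117, adjusted p = 0.0557), which no longer passed the test. Without B6 low glucose 4 alone it was -0.67 (adjusted p = 0.0517), and without BLKS low glucose 5 alone -0.68 (adjusted p = 0.0767). The rises themselves stayed called without both libraries, at 0.93 and 0.61 for the second Txnip probe, 0.67 and 0.39 for Arrdc4 and 1.02 and 0.38 for Tieg1 in B6 and BLKS. For Pklr they were 0.12 and 0.025, neither called.

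The Tieg1 call also changed with single mice. It passed in 4 of the 19 fits that left out 1 mouse each, namely without B6 low glucose 1, B6 low glucose 5, BLKS high glucose 4 or B6 high glucose 5, and its adjusted p over the 19 ran from 0.01 to 0.113. The difference itself stayed between -0.79 and -0.67. Leaving out the 2 arrays that were scanned later gave -0.75 (adjusted p = 0.0278).

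**Figure D3:**
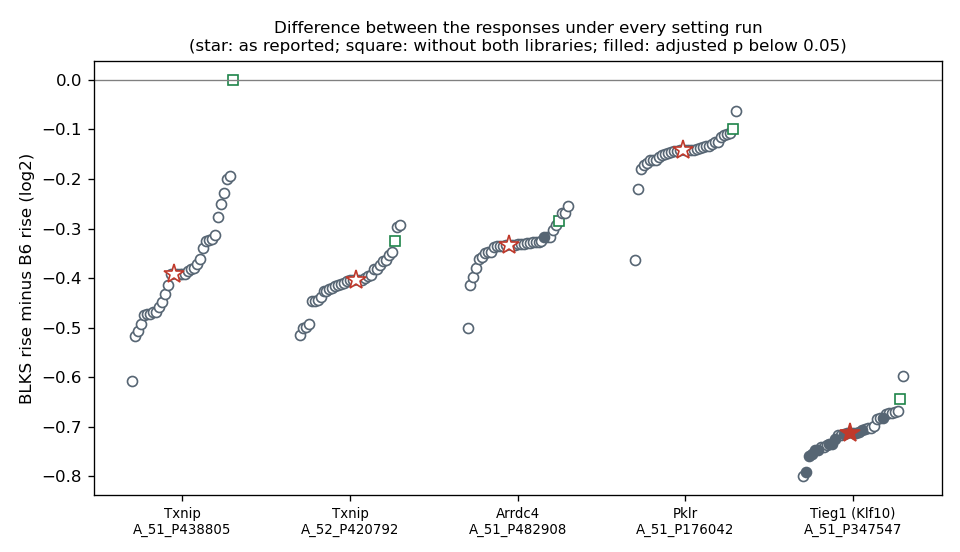
BLKS response minus B6 response (log2, y axis) of each member probe under each of the 34 alternative settings (circles, and a square for the fit without both libraries) and as reported (star), in rising order within a probe and filled where the adjusted p was below 0.05. The brighter Txnip probe reached -0.00096 without both libraries, while the Tieg1 values lay between -0.80 and -0.60.

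In 9 array pairs a B6 mouse was set against a BLKS mouse of the same glucose concentration, so that strain differences could also be read within arrays. B6 high glucose 5 shared its arrays with B6 low glucose 1 and enters no such pair. For Tieg1 the BLKS minus B6 difference on the log2 scale was -0.48, -0.13, -0.14, 0.03 and -0.20 in the 5 pairs in low glucose and -1.05, -0.91, -0.87 and -0.84 in the 4 pairs in high glucose. For Arrdc4 it was -0.27, -0.01, -0.12, 0.13 and -0.06 against -0.27, -0.42, -0.67 and -0.21. The Tieg1 pairs did not overlap between the concentrations, and those of Arrdc4 did. For the brighter Txnip probe it was -1.05, -0.71, -1.11, -0.40 and -0.20 against -0.96, -1.34, -1.35 and -0.997.

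By the exact permutation test over these pairs (two-sided, smallest possible p 0.00794), the 2 concentrations differed by -0.73 for Tieg1 (exact p = 0.00794), by -0.45 for the second Txnip probe (exact p = 0.00794), by -0.33 for Arrdc4 (exact p = 0.0317), by -0.16 for Pklr (exact p = 0.0238) and by -0.47 for the brighter Txnip probe (exact p = 0.0873). These p-values are not adjusted for the 5 probes. Without pairs 4 and 5 in low glucose, which held the libraries that stand apart, the smallest p possible was 0.0286, and the exact p was 0.0286 for Tieg1, 0.0571 for the second Txnip probe, 0.171 for Arrdc4, 0.114 for Pklr and 0.286 for the brighter Txnip probe.

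**Figure D4:**
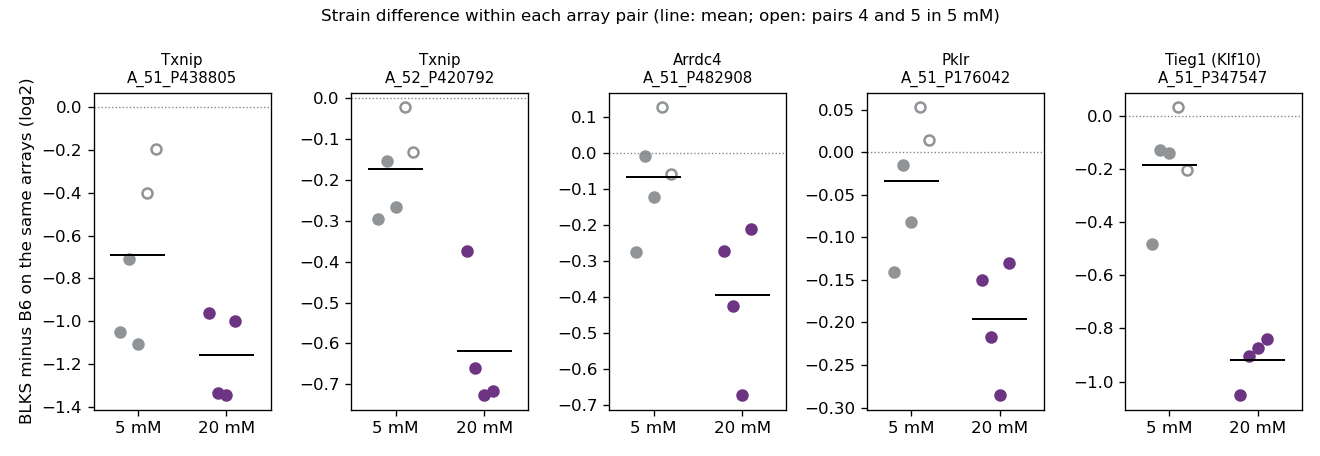
BLKS minus B6 difference in log2 signal within each array pair (points; lines are means) in 5 mM and 20 mM glucose for the 5 member probes, with pairs 4 and 5 in 5 mM as open points. For Tieg1 the 4 pairs in 20 mM lay between -1.05 and -0.84 and every pair in 5 mM lay above them.

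The choice of scale mattered for Txnip. In signal units its brighter probe rose by 3632 units in B6 and by 1574 units in BLKS, a BLKS rise of 43.3% of that in B6, compared with 81.6% on the log2 scale. Tieg1 rose by 343 and 77.4 units (22.5%), Arrdc4 by 67.5 and 29.8 units (44.1%) and the second Txnip probe by 95.2 and 42.4 units (44.6%). Pklr, which was called in neither strain, differed by 8.65 units in B6 and by -0.064 units in BLKS (-0.741%). In units the Txnip and Arrdc4 percentages thus lay close together, with that of Tieg1 below them and that of Pklr lowest.

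In units the pair test gave an exact p of 0.00794 for the brighter Txnip probe, which had missed the threshold on the log2 scale. It also gave an exact p of 0.00794 for the second Txnip probe, Arrdc4 and Tieg1, and of 0.0159 for Pklr. From a lower start an equal fold rise is a smaller rise in units. The test in units thus cannot tell a smaller response from a lower level in BLKS, and no conclusion on the response is drawn from it. Without both libraries that stand apart, the BLKS rise in units was 47.9% of the B6 rise for the brighter Txnip probe and 24.8% for Tieg1. The log2 rise of that Txnip probe was then 1.93 in both strains.

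Within high glucose all 5 member probes were called lower in BLKS, where 6.12% of all tested probes were. The difference was -1.09 on the log2 scale for the brighter Txnip probe (SE 0.272, limma adjusted p = 0.0159, exact permutation p = 0.00794) and -0.58 for the other (SE 0.119, adjusted p = 0.00636, exact p = 0.0238). It was -0.90 for Tieg1 (SE 0.0845, adjusted p = 2.64e-05, exact p = 0.00794) and -0.40 for Arrdc4 (SE 0.0775, adjusted p = 0.00445, exact p = 0.0159). The strains did not overlap on 3 probes, where 8.25% of all probes did not overlap and were lower in BLKS. They did on the second Txnip probe, where the lowest B6 mouse (146 units) lay below the highest BLKS mouse (152 units).

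For Pklr the difference in high glucose was -0.18 (SE 0.053, adjusted p = 0.0393, exact permutation p = 0.0476), with overlap. That call was lost in 6 of the fits that left out 1 mouse, namely without BLKS high glucose 1, 2 or 3 or B6 high glucose 2, 3 or 4, with adjusted p from 0.0708 to 0.129. It was also lost in 4 of the 15 other alternatives, namely with the negative control signal subtracted (-0.50, adjusted p = 0.0634), without scaling between arrays (-0.17, adjusted p = 0.089), in the authors' log2 table (-0.19, adjusted p = 0.126) and with Cy3 alone (-0.12, adjusted p = 0.271).

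Within low glucose limma called none of the members and 0% of all probes. Over all probes 2698 were called without B6 low glucose 4, 2373 without BLKS low glucose 5 and 4580 (15.6%) without both. In the fit of all libraries 2 member probes, the brighter Txnip probe and Tieg1, had an unadjusted p below 0.05. Txnip differed by -0.69 (SE 0.256, adjusted p = 0.194) and -0.17 (SE 0.112, adjusted p = 0.512), Tieg1 by -0.18 (SE 0.0797, adjusted p = 0.258), Arrdc4 by -0.07 (SE 0.073) and Pklr by -0.03 (SE 0.05). With the array pair as a block, the brighter Txnip probe was called (adjusted p = 0.0236 as a fixed block and 0.00995 as a random one), and Tieg1 was called with the random block (adjusted p = 0.0359). The share of all tested probes called in these block fits is not given here. Those calls are therefore not read as particular to the members. Without both libraries that stand apart the brighter Txnip probe was -1.08 (SE 0.21, adjusted p = 0.00142), beside its -1.09 in high glucose. Without B6 low glucose 4 alone it was -0.89 (adjusted p = 0.025), and without BLKS low glucose 5 alone -0.89 (adjusted p = 0.032).

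Markers of other cell types differed between the strains as well, in both directions. All 6 fibroblast markers (Col1a1, Col1a2, Col3a1, Dcn, Lum and Pdgfra) passed the detection filter. Pdgfra was dim, with 6 of the 19 mice well above background. In B6 they were higher in high glucose in 6 of 6 cases with 3 called (Dcn, Lum and Pdgfra) and a median difference of 0.47. Of all tested probes 5.42% were called higher in that comparison. In BLKS the median was -0.0069 with none called, and 3 of the 6 had a lower value. In high glucose 5 of 6 were called lower in BLKS, with a median of -0.65, where 6.12% of all tested probes were. Their summed signal ran from 1920 to 3590 units in B6 in low glucose, 3020 to 6440 in B6 in high glucose, 1690 to 2410 in BLKS in low glucose and 1250 to 2860 in BLKS in high glucose. In the fit without both libraries that stand apart 2 of the 6 (Dcn and Lum) were called higher in B6 in high glucose, with a median of 0.42, and 5 were called lower in BLKS in high glucose.

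All 4 endothelial markers had lower values in BLKS in high glucose, with a median of -0.24. Of these markers 2 were called, where 6.12% of all tested probes were called lower. Their summed signal was 521 to 626 units in B6 and 415 to 477 units in BLKS there, and 586 to 686 and 502 to 595 units in low glucose. Of the 5 macrophage markers that passed the detection filter, 3 had higher and 2 lower values in BLKS in high glucose, with 1 called lower. Their summed signal was 2300 to 3460 units in B6 and 1740 to 2280 units in BLKS there, and 2930 to 3960 and 2280 to 3570 units in low glucose. That sum mostly followed 1 gene, Lyz2, whose mean log2 signal was 11.0. The next brightest marker, Csf1r, had 7.74. Of the 10 beta cell markers 4 (Mafa, Nkx6-1, Slc2a2 and Ucn3) fell over both strains and none rose. Over both strains 11.4% of all tested probes were called lower and 10.9% higher. Ins1, Ins2 and Iapp are among the 10 but were saturated, so that no change could be read from them. In high glucose Pdx1 was called higher (0.40) and Slc2a2 lower (-0.59) in BLKS. Other lists went the other way there. Of 6 acinar markers tested 5 had higher values in BLKS, with 1 called and a median of 0.305. All 4 duct markers tested were higher, with 1 called and a median of 0.105. Of all 29330 tested probes 1457 were called higher. No alpha, delta or PP cell marker was called, and all 4 alpha cell markers had lower values in BLKS. Gcg, Sst and Ppy, at mean log2 signals of 15.99, 15.97 and 15.79, lay at or near the 15.99 of the saturated Ins1. A change in those genes could therefore have been missed. The part of any of these cell types in the member results was not tested.

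Beyond the members, 24 other genes described as glucose-response targets of ChREBP are given here. Over both strains 3 of them rose and 4 fell, with a median difference of 0.04, where 10.9% of all tested probes were called higher and 11.4% lower. Rgs16, a regulator of G protein signalling, rose by 0.65 over both strains (SE 0.107, adjusted p = 0.000207), and its responses of 0.88 in B6 and 0.42 in BLKS were not shown to differ (adjusted p = 1). Thrsp, which encodes a nuclear protein linked to fat synthesis, rose by 0.32 (SE 0.108, adjusted p = 0.0409). Slc2a2, which encodes the glucose transporter GLUT2, fell by 0.57 (SE 0.0915, adjusted p = 0.000169). Khk, which encodes ketohexokinase, fell by 0.55 (SE 0.0857, adjusted p = 0.000123), by 0.54 in B6 and by 0.56 in BLKS. Of these 24 genes 17 had a lower response in BLKS than in B6, with a median difference of -0.02. In limma none of them was called for that difference, and 3 had an unadjusted p below 0.05. When both libraries that stand apart were left out, 5 rose and 3 fell over both strains, and 14 had a lower response in BLKS, with none called and 3 at an unadjusted p below 0.05. Rgs16 then rose by 0.625 over both strains, and its responses differed by -0.34 (adjusted p = 1), where the fit of all libraries gave -0.46.

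**Figure D5:**
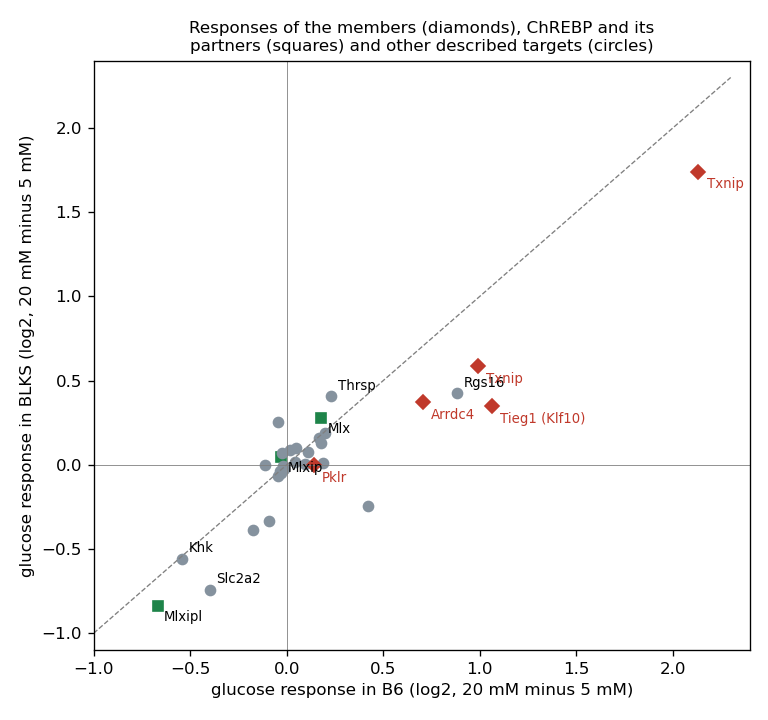
Glucose response in BLKS (y axis) against that in B6 (x axis), both as log2 differences between 20 mM and 5 mM glucose, for the 5 member probes (diamonds), Mlxipl (brighter probe), Mlx and Mlxip (squares) and 24 other described ChREBP targets (circles), with the line of equal response dashed. Tieg1, at 1.06 in B6 and 0.35 in BLKS, lay well below the line.

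The families around each member gave the following counts over both strains. Of 13 genes listed for the thioredoxin system, which Txnip binds into, 8 rose and 3 fell. The list also held Nlrp3, which is not itself a gene of that system. The widest called were Srxn1, which encodes sulfiredoxin (0.46, adjusted p = 5.15e-05), Txn1, which encodes cytosolic thioredoxin (0.42, adjusted p = 8.3e-06), Txn2, which encodes mitochondrial thioredoxin (0.33, adjusted p = 3.89e-05), and Txnrd2, which encodes mitochondrial thioredoxin reductase and fell by 0.25 (adjusted p = 0.00679). Txn1 rose by 0.56 in B6 (adjusted p = 4.33e-05), and its BLKS rise was 0.28 (adjusted p = 0.0182). Counts of 8 rises and 3 falls were also found without both libraries that stand apart, where the BLKS difference of Txn1 was 0.23 (adjusted p = 0.0502).

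Of the 3 other alpha-arrestins measured, Arrdc1 fell by 0.12 (adjusted p = 0.0211) and the rest did not pass the test. Of 19 glycolysis genes 4 rose and 2 fell. The rises were those of Pgk1, for phosphoglycerate kinase (0.55, adjusted p = 0.033), Eno1, for enolase (0.55, adjusted p = 0.026), Pkm, for the muscle-type pyruvate kinase (0.30, adjusted p = 0.00902), and Gapdh (0.37, adjusted p = 0.0479), whose probe is named LOC380687 on the array and whose many near-identical copies make that match uncertain. With both libraries that stand apart left out 1 glycolysis gene rose, Pkm (0.28, adjusted p = 0.0227), and 3 fell, and Pgk1 (0.52, adjusted p = 0.0522), Eno1 (0.515, adjusted p = 0.0544) and Gapdh (0.34, adjusted p = 0.0802) no longer passed.

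Of 15 other Krüppel-like factors, Klf5 rose by 0.17 (adjusted p = 0.0121) and Klf15 fell by 0.31 (adjusted p = 7.53e-05). The fall of Klf15 was 0.48 in B6 (adjusted p = 9.27e-05), and in BLKS its difference was -0.14 (adjusted p = 0.196). The difference between those responses was 0.34 (adjusted p = 0.517). Of 7 TGF-beta genes linked to Klf10, Smad7 rose by 0.13 (adjusted p = 0.0335), Tgfbr1 fell by 0.16 (adjusted p = 0.00122) and Smad2 fell by 0.15 (adjusted p = 0.000314). In the fit without both libraries Smad7 no longer passed (0.12, adjusted p = 0.0646), and Arrdc1, Klf5, Klf15, Tgfbr1 and Smad2 did.

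Over the 19 mice the members followed each other, with Pearson correlations from 0.70 to 0.97 between probes, and the lowest involved Pklr. After the mean of each group was taken away the correlations ran from 0.27 to 0.80. Over the 17 mice without both libraries that stand apart these ranges were 0.71 to 0.97 and 0.15 to 0.87. Among the genes reported here, the probes with the pattern most like that of Tieg1 were those of Slc5a10 (r = 0.981), Sh2d5 (r = 0.97), Aqp4 (r = 0.953), Ddhd2 (r = 0.952) and Soat1 (r = 0.951). For the brighter Txnip probe they were Soat1 (r = 0.974), Lifr (r = 0.97), Rspo4 (r = 0.96), Hapln4 (r = 0.944) and Rgs16 (r = 0.929).

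Arrdc4 was most like Ephx1 (r = 0.949), Hapln4, Smoc1, the second Txnip probe (each r = 0.947) and Soat1 (r = 0.935). Pklr was most like Mctp1 (r = 0.91), Aacs (r = 0.902), Ptger3 (r = 0.886), Aqp4 (r = 0.871) and Klhl42 (r = 0.866). Over the same 17 mice the correlations of the genes named here with their member lay between 0.877 and 0.98. The mice behind these values share arrays and glucose groups, and the correlations are given as a description.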

How the data were processed

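Islet RNA of 19 mice was hybridised to 20 arrays with the dyes swapped, as B6 against BLKS except for 2 arrays, which set B6 low glucose 1 (on 4 arrays in all) against B6 high glucose 5. The deposited scanner intensity values were made by the authors with Agilent Feature Extraction (8.1 per the labels, 9.5.3.1 per the file headers), whose processed signal had LOWESS dye normalization and no background subtraction. The authors' log2 table holds the mean of the 2 dyes, which followed the log2 mean signal (correlation at least 0.99995, column medians 6.19 to 6.49), and was used as an alternative.

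From the processed signals, log2 values were scaled so that arrays shared an average brightness distribution (Aquantile), outlier spots and control spots were left out, and spots, dyes and arrays of a mouse were averaged, so that n counts mice. Probes well above background in at least 4 mice were kept (29330 of 41174). Groups were fitted in limma (version 3.58.1, R 4.3.3) with Benjamini-Hochberg adjustment over all tested probes, called at an adjusted p below 0.05. All groups entered 1 fit and shared its spread. Single comparisons used exact two-sided permutation tests. The number of arrays limits the precision. The fit was tested on simulated data. Alternatives changed the background correction, scaling, filter, outlier spots, dye, arrays, model, array pair block, single mice and the 2 libraries that stand apart from their label (for the lists and correlations, an alternative chosen after seeing the data).

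Genes were named from the array, with accessions matched to RefSeq for 82.1% of tested probes. Named beside the members were all probes of Mlxipl, Mlx and Mlxip and, of each other list (brightest tested probe per gene), up to 4 called genes with the widest response over both strains and any gene called for the difference between responses; the TGF-beta list has 3 called genes. The lists were other ChREBP targets, glycolysis, Krüppel-like factors, thioredoxin system, alpha-arrestins, TGF-beta genes and islet, duct, acinar, endothelial, fibroblast and macrophage markers. Of the lists, 1 gene is not reported here and was left out of the lists and of the likeness of patterns. The members and lists were chosen with earlier results of these data known.

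Per the labels, the B6 and BLKS mice of 1 number and 1 glucose concentration were on the same arrays. Their deviations from group means correlated between 0.0202 and 0.694 (median 0.482, 9 pairs), and the array pair was therefore also fitted as a replicate block. Of the arrays, 2 were scanned later than the other 18. Motifs were counted with Python 3.11.15.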

Additional observations from a re-analysis of the deposited data

Results flagged for a closer look

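The BLKS high glucose 4 library had a Txnip signal (probe A_51_P438805) far above the other 3 BLKS mice in high glucose, at a log2 signal of 11.73 against 10.88 for the nearest, and its gap came to 0.963 of the range of the group. Of 20 groups of member values examined this way, 1 stood out, and chance gives about 1 in 20. Without that mouse the difference between the strains in the Txnip response was -0.61, and it was not called.

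The glucose response of Tieg1 (Klf10) differed between the strains by -0.7125 on the log2 scale by the test of the difference itself (limma adjusted p = 0.0376). It passed in 10 of the 15 alternatives other than leaving out 1 mouse and in 4 of the 19 that left out 1 mouse, and it did not pass without both libraries that stand apart from their label (adjusted p = 0.0557).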

How the results depend on the processing

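All 170 values of the difference in response, over 5 probes and 34 alternatives, were below 0. These are refits of the same mice, so that their shared sign is no separate evidence. The brighter Txnip probe was in effect at 0 in 1 of them (-0.00096, without both libraries that stand apart). Tieg1 lost its call with the negative control signal subtracted (-0.80, adjusted p = 0.223), without scaling between arrays (-0.72, 0.0986), in the authors' log2 table (-0.60, 1), with Cy3 alone (-0.67, 0.0611) and without both libraries that stand apart (-0.64, 0.0557), which left 0 member probes called in each. The methods' linear model, which counts the dyes of a mouse as separate values, also called Arrdc4 (-0.32, adjusted p = 0.0439), 2 probes in all. In low glucose 2 probes were called under the methods' model and the random replicate block, and 1 under the fixed replicate block and without both libraries. The share of all tested probes called under that model and the blocks is not given here. These counts are therefore not read as particular to the members. No other member call changed under a replicate block.

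With 1 mouse left out, the Tieg1 difference ran from -0.79 to -0.67, the called probes from 0 to 1 for the difference in response and from 0 to 1 in low glucose. The Pklr response in BLKS changed sign with normexp (0.017), negative control subtraction (0.011), the authors' table (0.0099), Cy3 alone (0.025) and without both libraries (0.025), and ran from -0.040 to 0.031 with 1 mouse left out. In the array pairs, signal units gave a difference of -2307 units for the brighter Txnip probe. Without pairs 4 and 5, an alternative chosen after seeing the data, the pair differences of Txnip (second probe, -0.38), Arrdc4 (-0.26) and Pklr (-0.12) no longer passed. Over all probes, 12 were called for the difference in response, from 3 to 294 under the alternatives that kept all mice, from 1 (without B6 high glucose 1, BLKS high glucose 1 or BLKS high glucose 2) to 16 with 1 mouse left out and 17 without both libraries. The signal of Pklr over background limits its precision.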
